A study of Homo sapiens with 7 samples.

Results

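The pericentromeric segments described here flank the centromeres of 15 autosomes, chromosomes 1, 2, 3, 5, 6, 7, 8, 9, 10, 11, 12, 14, 15, 20 and 21. A peak was a member when its start, on the genome build hg19, lay within 5 Mb of a given centromere point. Wider limits, 120 to 150 Mb and 38 to 71 Mb, were used on chromosomes 1 and 9 because of their large heterochromatin blocks. The segments held 1190 of the 47959 peaks in 6 deposited peak lists, and the rest of the same chromosomes held 28917. By list, the members numbered 241 and 254 for histone H1 in wild-type cells, 145 and 107 for H1 in NuMA-depleted cells, 159 for the C terminus of NuMA and 284 for its N terminus.

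All libraries were CUT&Tag libraries of the established human colon cancer line HCT116, made from 10000 cells per assay. In CUT&Tag an antibody brings the transposase Tn5 to chromatin, where it cuts and tags the DNA beside the bound protein. Histone H1 was profiled in 2 libraries of wild-type genotype, titled NC, and in 2 of the genotype NuMA depletion, titled AID. For NuMA there was 1 wild-type library made with an antibody to the C terminus and 1 made with an antibody to the N terminus. A library made with immunoglobulin G was not analysed here. The titles do not spell out AID and NC, and clone or treatment cannot be told apart from the depletion, whose extent the lists do not show. No label says whether replicates were separate cultures. The p-values here come from exchanging the labels of libraries, and the spread of libraries within a group may be purely technical.

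A centromere is built on long arrays of alpha satellite, a short sequence repeated head to tail. The chromatin beside it is mostly compact heterochromatin with other satellites and recently duplicated segments, and on chromosomes 14, 15 and 21 the short arm is made almost wholly of such repeats and ribosomal DNA genes. Histone H1, the linker histone, binds the nucleosome where DNA enters and leaves it and favours compact chromatin. NuMA is a large coiled-coil protein that organises the poles of the mitotic spindle and lies in the nucleus between divisions. By its title, the study asked how NuMA bears on chromatin architecture and H1 binding.

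Much of a human centromere is a block of unknown sequence in hg19, where no read can be placed. The limits of the blocks used here were entered by hand from general knowledge of hg19 and not checked against its gap table, and every sequenced length and distance to a block rests on them. Of the 193 Mb of the segments, 86.4 Mb were such blocks and 107 Mb were sequenced, against 1988 sequenced Mb in the rest of the 15 chromosomes. None of the lists had a peak inside a block (0 peaks). The segments were 8.71% of the full length and 5.09% of the sequenced length. Every density is therefore given over both lengths. The sources used here do not say how reads matching several places were treated.

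The lists gave no read totals, but the fragments at each summit and the local background around it could be worked out for each peak from its deposited fold and −log10 p. The lowest background of a list is its average over the genome, which grows with depth. It was 1.05 and 0.987 fragments for H1 in wild-type cells, 0.681 and 0.502 for H1 in depleted cells, 0.477 in the NuMA C-terminal library and 0.773 in the N-terminal one. Whether the immunoglobulin G library served as control in the NuMA calls is not given. If it did, the background and genome average of the NuMA lists describe that library. Among regions named below, the C- and N-terminal backgrounds were the same pair, 2.36 and 2.46 times the genome average, at chr20:30183544-30184544 and chr1:149899291-149900226. They were 9.42 and 9.84 times at both chr1:149783248-149783963 and chr14:20881352-20881872. They lay further apart at chr7:56118912-56119618 (8.25 and 11.1), chr7:56019155-56020766 (3.53 and 6.15) and chr10:43857079-43858292 (15.3 and 20.1). Whether both lists share a control was not tested. Each H1 group had a depth range of its own, and depth and depletion cannot be told apart. Intervals on shares and densities are exact 95% binomial intervals, which cover counting error only.

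Relative to the rest of the same chromosomes, H1 peaks were dense and NuMA peaks sparse in the sequenced bases of the segments. The lists themselves had 2.26, 2.38, 1.36 and 1.00 H1 peaks and 1.49 and 2.66 NuMA peaks per sequenced Mb there, in the order of the lists above, so NuMA was not the rarer in absolute terms. Over sequenced length, H1 peak density in the segments was 1.38 times (interval 1.21 to 1.58) that of the rest in wild-type replicate 1. It was 1.18 times (1.04 to 1.34) in wild-type replicate 2. The depleted replicates had ratios of 1.45 (1.22 to 1.72) and 1.91 (1.55 to 2.33). All 4 H1 lists were therefore denser in the segments than in the rest when unsequenced bases were left out. Over full length the same lists had ratios of 0.777, 0.663, 0.814 and 1.07, so the direction of 3 of the 4 depended on the length used. NuMA peaks were sparser in the segments on either length. Per sequenced Mb their ratios were 0.378 (0.321 to 0.442) for the C-terminal and 0.486 (0.430 to 0.547) for the N-terminal antibody, and over full length 0.212 and 0.273.

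**Figure D1:**
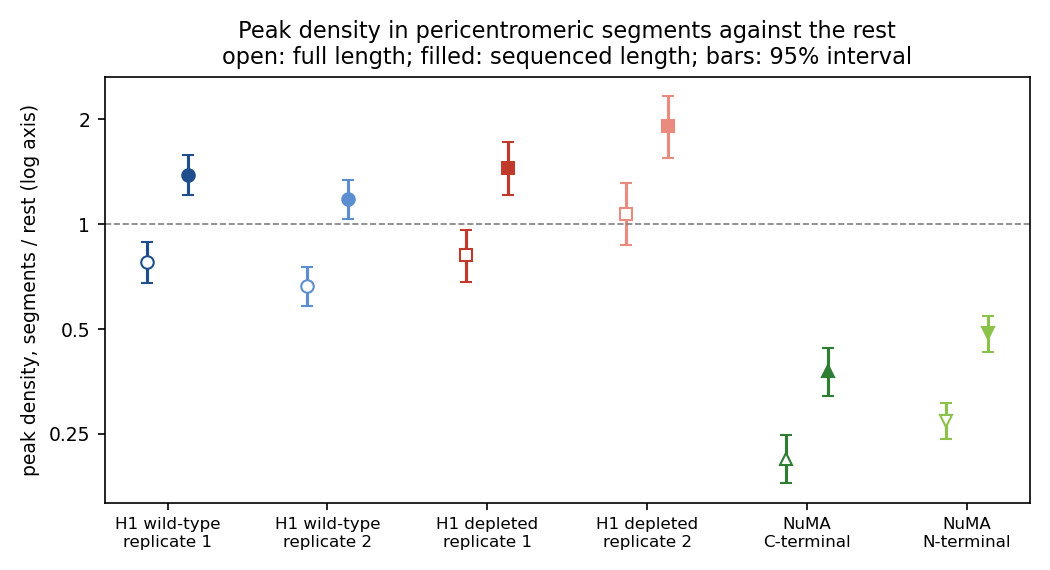
Peak density in the pericentromeric segments divided by that in the rest of the same 15 chromosomes, on a log axis, for each of the 6 libraries; open symbols use full length, filled symbols sequenced length, and bars are exact 95% intervals of the counts. Over sequenced length the 4 H1 libraries sit above 1 and both NuMA libraries below 1, at 0.378 and 0.486.

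The share of a list that fell in the segments sets H1 above NuMA without a length. Whether a list was denser there than in the rest still depends on the length, of which the segments were 5.09% (sequenced) or 8.71% (full). It was 6.91% (6.09% to 7.80%) and 5.96% (5.26% to 6.71%) of the wild-type H1 peaks on the 15 chromosomes. In the depleted lists it was 7.21% (6.12% to 8.43%) and 9.28% (7.67% to 11.1%). The NuMA lists had 1.99% (1.69% to 2.32%) and 2.54% (2.26% to 2.85%) of their peaks there. The intervals of both NuMA shares lay below those of all 4 H1 shares.

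Between the proteins, the log2 density ratio per sequenced Mb averaged 0.54 ± 0.29 (SD, n = 4) for H1 and -1.22 ± 0.26 (SD, n = 2) for NuMA, a difference of 1.77. The exact two-sided permutation test gave p = 0.0667, the smallest that 4 against 2 libraries allow. With segments of 3 Mb on each side the difference was 2.74. The 4 H1 libraries join wild-type and depleted cells, and the 2 NuMA libraries join 2 antibodies in wild-type cells, so neither SD is a spread of replicates. The wild-type H1 libraries alone averaged 0.35. The H1 and NuMA lists also differ in antibody, length, in part genotype, and possibly in how peaks were called. The part of these in the difference was not tested.

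Between the H1 groups, the depleted lists had the higher ratios, but the replicates were few. The log2 density ratio per sequenced Mb averaged 0.73 ± 0.28 (SD, n = 2) in the depleted and 0.35 ± 0.16 (SD, n = 2) in the wild-type libraries. The difference was 0.38, with an exact two-sided permutation p = 0.33, the smallest possible for 2 against 2. Leaving out depleted replicate 2 gave 0.18, and leaving out depleted replicate 1 gave 0.58. Depleted replicate 2 had both the highest ratio and the lowest genome average of the H1 libraries.

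H1 peaks were most crowded against the unsequenced blocks. Within 0.25 Mb of a block, a total of 7 sequenced Mb on the 15 chromosomes, the H1 lists had 44, 49, 36 and 38 peaks in the order wild-type replicates 1 and 2, then depleted replicates 1 and 2. The NuMA lists had 2 C-terminal and 3 N-terminal peaks in the same bases. These H1 densities were 3.85, 3.47, 5.48 and 10.3 times those of the rest, and the NuMA densities 0.0724 and 0.0781 times. From 0.25 to 0.5 Mb the counts were already 10, 10, 6 and 6 for H1, with 0 and 1 for NuMA. The log2 density ratio within 0.25 Mb averaged 2.39 ± 0.71 (SD, n = 4) for H1 and -3.73 ± 0.08 (SD, n = 2) for NuMA. Their difference of 6.12 had an exact two-sided permutation p = 0.0667, again the smallest possible. These means also pool both H1 genotypes and both NuMA antibodies. The H1 and NuMA peaks may have been called against backgrounds of different kinds, and the part of this in the contrast was not tested. The immunoglobulin G library was not analysed, so signal beside the blocks without a specific antibody is not known. The distance of 0.25 Mb was chosen after the counts were seen.

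**Figure D2:**
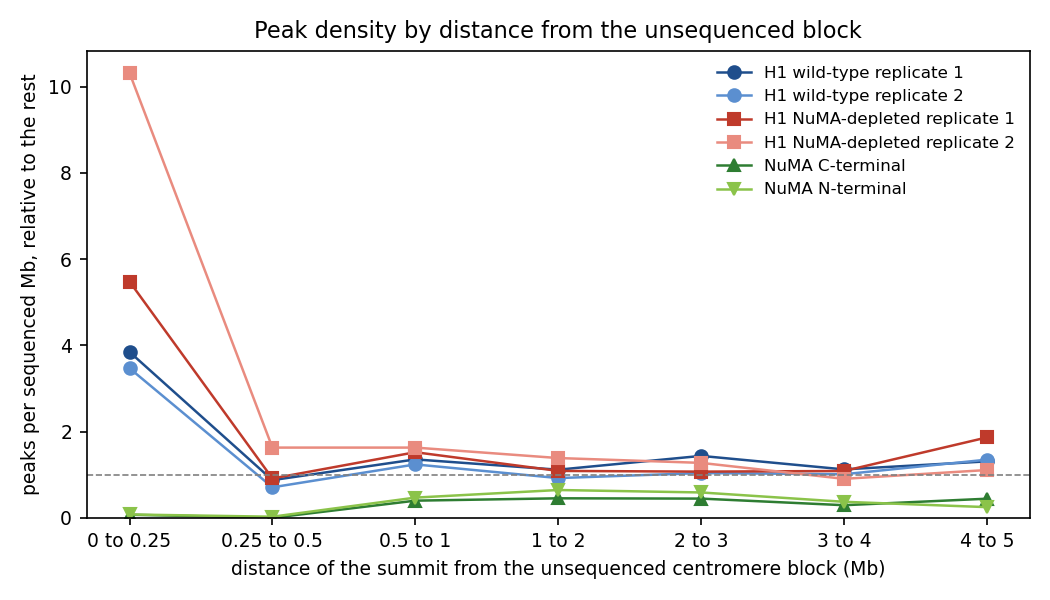
Peaks per sequenced Mb by distance of the summit from the unsequenced centromere block in Mb, relative to the rest of the same chromosomes (dashed line at 1), with 1 line for each of the 6 libraries. In the first 0.25 Mb the H1 libraries lie at 3.47 to 10.3 and the NuMA libraries at 0.0724 and 0.0781; beyond it the H1 libraries come down to between 0.708 and 1.86.

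Further out, H1 density was close to that of the rest. Beyond 0.25 Mb from a block the ratios were 1.21 (1.04 to 1.40) and 1.02 (0.882 to 1.17) in the wild-type lists and 1.17 (0.952 to 1.41) and 1.32 (1.02 to 1.68) in the depleted lists. Beyond 1 Mb they were 1.21, 1.01, 1.12 and 1.23, and the intervals of 3 of these 4 included 1. NuMA stayed sparse throughout, with ratios of 0.399 and 0.514 beyond 0.25 Mb and 0.435 and 0.566 beyond 1 Mb. At the limits of the segments, the last 1 Mb inside held 53, 46, 26 and 8 H1 peaks and the first 1 Mb outside 36, 49, 17 and 14. For NuMA these counts were 53 and 94 inside and 82 and 122 outside.

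The peaks beside the blocks made up a larger share of the depleted H1 lists. They were 1.26% (0.918% to 1.69%) and 1.15% (0.851% to 1.52%) of the wild-type lists, and 1.79% (1.26% to 2.47%) and 3.30% (2.34% to 4.50%) of the depleted lists. The mean difference was 1.34 percentage points, with an exact permutation p = 0.33, the smallest possible. Leaving out depleted replicate 2 gave 0.585 points, and leaving out replicate 1 gave 2.09. When every list was reduced to its 1153 strongest peaks by fold, the shares were 1.13%, 1.30%, 1.47% and 3.30%. The counts themselves were not higher after depletion, since 36 and 38 peaks stood against 44 and 49. Local background was high here. Its median at these peaks was 20.7 and 13.6 times the genome average in the wild-type lists and 34.7 and 31.9 times in the depleted ones, and its part in the counts was not tested.

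H1 peaks beside a block were found on 14 of the 15 chromosomes, and on 9 of them in all 4 lists. Chromosome 2 had the most, with 11 and 12 in the wild-type and 12 and 10 in the depleted lists. Chromosome 8 followed with 8, 8, 5 and 7, chromosome 11 with 7, 7, 6 and 7, and chromosome 10 with 5, 4, 4 and 5. Without chromosome 2 the difference between the H1 groups was 0.990 percentage points. NuMA peaks beside a block were found on only 4 chromosomes.

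H1 and NuMA peaks were unevenly spread over the 15 segments. Per sequenced Mb, all 4 H1 lists were above the rest of their own chromosome in 7 segments, those of chromosomes 1, 2, 8, 9, 10, 14 and 20. They were all below it in 3, those of chromosomes 3, 5 and 15, and mixed in the other 5. Both NuMA lists were below the rest in 14 segments and above it in 1, that of chromosome 2. Chromosome 21 had no NuMA peak in its segment in either list, and chromosome 3 had none in the C-terminal list.

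Chromosome 9, whose heterochromatin block is among the largest of the genome, had the widest segment, with 15 sequenced Mb against 3 to 9 in the others, and the most H1 peaks. Per sequenced Mb it had 9.60 H1 peaks summed over the 4 lists, below chromosomes 14 (16.8), 2 (13) and 10 (11.4). Its segment held 47 and 54 in the wild-type and 27 and 16 in the depleted lists, or 2.46, 2.33, 2.53 and 2.68 times the density of the rest of that chromosome. NuMA had 8 and 18 peaks in the same segment, at 0.0820 and 0.140 times the rest. Here H1 was dense and NuMA sparse. The segment of chromosome 3 was poor in both, with 3, 3, 2 and 0 H1 peaks and 0 and 4 NuMA peaks.

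On chromosome 2 both proteins were above the rest, with most H1 peaks on the short-arm side of the block and most NuMA peaks on the long-arm side. The segment held 24, 34, 21 and 12 H1 peaks, at 2.16, 2.61, 3.48 and 4.16 times the rest, and 19 and 39 NuMA peaks, at 1.10 and 1.57 times. Summed over the 4 lists, 73 of the H1 peaks lay on the short-arm side and 18 on the long-arm side. For NuMA, 3 lay on the short-arm side and 55 on the long-arm side, summed over its 2 lists. The 2 sides are of 4.33 and 2.67 sequenced Mb, so these sums were 16.9 and 6.73 per Mb for H1 and 0.693 and 20.6 for NuMA. By list, the long-arm side held 6 and 10 wild-type and 2 and 0 depleted H1 peaks.

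Uneven splits between the sides were found elsewhere, but not always with H1 and NuMA on opposite sides. On chromosome 10, 61 of the H1 peaks lay on the long-arm side and 19 on the short-arm side, and NuMA peaks numbered 24 and 11, on 2.75 and 4.25 sequenced Mb. Both proteins were thus denser on the long-arm side there, at 22.2 and 4.47 per Mb for H1 and 8.74 and 2.59 for NuMA. On chromosome 1, where the long-arm side has 7.46 and the short-arm side 1.54 sequenced Mb, NuMA had 69 peaks on the long-arm side and 2 on the short-arm side, or 9.24 and 1.30 per Mb. H1 had 60 and 16 there, or 8.04 and 10.4 per Mb. On chromosome 20, NuMA had 51 peaks on the long-arm side and 20 on the short-arm side, and H1 had 14 and 31, on 2.63 and 4.37 sequenced Mb. The short-arm side of chromosome 21, of 1.88 sequenced Mb, had 23 of that segment's 26 H1 peaks, and the long-arm side of 3.71 Mb had 3. These sums pool lists that share many regions, so the peaks in them are not independent.

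**Figure D3:**
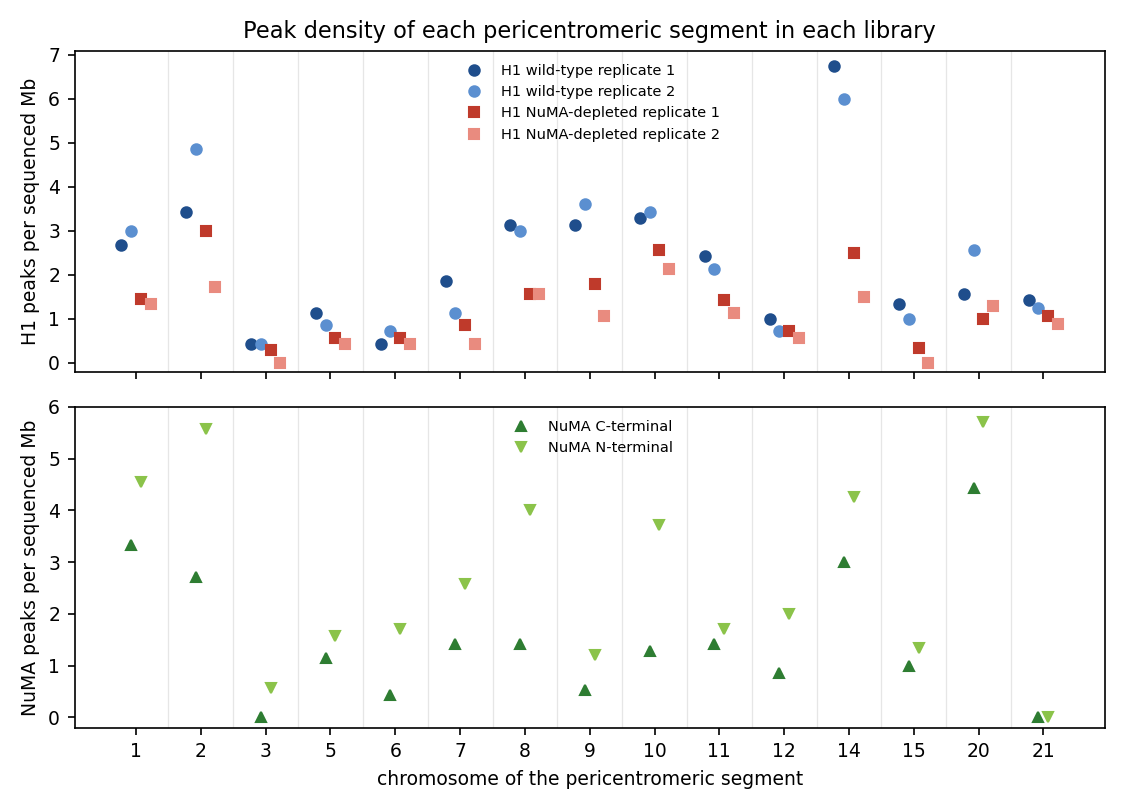
Peaks per sequenced Mb in each of the 15 pericentromeric segments, with the 4 H1 libraries in the upper panel and the 2 NuMA libraries in the lower one. H1 is densest in the segments of chromosomes 2, 9, 10 and 14, and NuMA in those of chromosomes 1, 2, 14 and 20; the segment of chromosome 21 has no NuMA peak.

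In bins of 1 Mb, the 5 fullest held 169 of the 747 H1 peaks of the segments, summed over the 4 lists. The fullest, 92 to 93 Mb of chromosome 2, held 12 and 13 wild-type and 12 and 10 depleted H1 peaks and no NuMA peak. The bin at 42 to 43 Mb of chromosome 10 held 11, 9, 9 and 11 H1 peaks, and the bin at 51 to 52 Mb of chromosome 11 held 7, 7, 6 and 7. In these 3 bins the depleted lists held as many peaks as the wild-type lists, to within 3 peaks, although they are shorter lists. The bin at 21 to 22 Mb of chromosome 14 differed, with 13 and 10 wild-type and 5 and 3 depleted H1 peaks and 7 and 10 NuMA peaks. That of 66 to 67 Mb of chromosome 9 held 9, 8, 4 and 3 H1 peaks.

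As a share of its list, H1 in a segment was higher in both depleted lists than in both wild-type lists on 6 of the 15 chromosomes, 2, 6, 10, 11, 12 and 21. Among 10 Mb windows of the rest this was the case for 20.8%. The share was lower in both depleted lists on 2, chromosomes 14 and 15, and in 21.9% of the windows of the rest. The chromosome 10 segment had 23 and 24 wild-type peaks, 0.659% and 0.563% of their lists, and 18 and 15 depleted peaks, 0.895% and 1.30%. The chromosome 14 segment had 27 and 24 wild-type peaks, 0.774% and 0.563%, and 10 and 6 depleted peaks, 0.497% and 0.520%. Counts this small, 40.0% of 15 segments, allow no more than this description.

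The fold of a peak is the authors' measure of how far its summit stands above the local background. Its median differed little between the segments and the rest. The median H1 fold was 6.33 in the segments and 6.44 in the rest in wild-type replicate 1, and 6.05 and 6.19 in replicate 2. It was 6.74 and 6.59 in depleted replicate 1, and 6.79 and 7.10 in replicate 2. The log2 shift of the median fold was -0.016 ± 0.068 (SD, n = 2) in the depleted and -0.029 ± 0.0055 (SD, n = 2) in the wild-type libraries, a difference of 0.013 (exact permutation p = 1.00). For NuMA the medians were 6.09 and 5.58 with the C-terminal and 4.82 and 4.81 with the N-terminal antibody. The shift of H1 minus that of NuMA was -0.085 (exact permutation p = 0.133), or -0.023 without the C-terminal and -0.148 without the N-terminal library, and its sign was turned by segments of 3 Mb on each side (0.010) and by lists of equal length (0.073).

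The strongest peaks were another matter for H1. Of the 1% of peaks of highest fold on the 15 chromosomes, the segments held 10 of 35 and 10 of 43 in the wild-type lists and 6 of 20 and 5 of 12 in the depleted lists. As shares these were 28.6% (14.6% to 46.3%), 23.3% (11.8% to 38.6%), 30% (11.9% to 54.3%) and 41.7% (15.2% to 72.3%), each above the share of all peaks in the segments. The highest H1 fold in the segments was above the highest in the rest in every H1 list, at 24.9 against 20.5, 26.1 against 23.4, 22.8 against 19.5 and 27.8 against 19.2. For NuMA the segments held 4 of 80 C-terminal and 1 of 112 N-terminal peaks of the top 1%, and none of the 10 strongest in either list. The C-terminal share, 5% (1.38% to 12.3%), was also above that of all its peaks, 1.99%. The N-terminal share, 0.893% (0.0226% to 4.87%), was below that of all its peaks, 2.54%. Both intervals included the share of all peaks. Without chromosome 9 the share pooled over the H1 lists was 18.4% instead of 28.2%.

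Local background set the segments apart more than fold did. Its median at H1 peaks was 2.48 times the genome average in the segments and 1.87 times in the rest in wild-type replicate 1, and 2.57 and 1.95 times in replicate 2. It was 3.76 and 2.13 times in depleted replicate 1, and 7.77 and 2.15 times in replicate 2. A background of at least 10 times the genome average was found at 54 (22.4%) of the segments' H1 peaks in wild-type replicate 1, where the whole list had 3.62%, and at 48 (18.9%) in replicate 2, with 3.64%. In the depleted lists it was found at 45 (31%), with 5.89% of the whole list, and at 50 (46.7%), with 9.46%. In the rest of the same chromosomes the shares were 1.60%, 2.04%, 2.63% and 3.54%. The counts of such peaks were close to each other in the 4 lists, from 45 to 54, while all other members numbered 187, 206, 100 and 57.

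The log2 ratio of the median background, segments to rest, averaged 1.34 ± 0.73 (SD, n = 2) in the depleted and 0.40 ± 0.01 (SD, n = 2) in the wild-type libraries. The difference of 0.94 had an exact permutation p = 0.33, the smallest possible. Single libraries moved this value, to 0.42 without depleted replicate 2 and 1.45 without replicate 1. A high background was common at NuMA peaks in the segments and in the whole lists, but it may be an unlike measure to that of the H1 lists. At least 10 times the genome average was found at 63 (39.6%) of the C-terminal members, with 45.0% of the whole list, and at 190 (66.9%) of the N-terminal members, with 66.4%. H1 peaks of the segments were also slightly wider than those of the rest, with medians of 441 and 395 bp, 391 and 362 bp, 461 and 409 bp, and 377 and 304.5 bp in the 4 lists.

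The H1 regions of the segments were shared more widely between lists. Overlapping peaks of the 4 H1 lists merged into 382 regions in the segments, of which 63 (16.5%) were called in all 4 lists and 199 (52.1%) in 1. In the rest 393 of 6206 merged regions (6.33%) were called in all 4 and 3760 (60.6%) in 1. Counted on wild-type replicate 1, the segments had 64 regions of all 4 lists, 13 of them on chromosome 10, 12 on chromosome 9 and 8 on chromosome 2. The segments of chromosomes 3 and 15 had none. Of the 64 regions, 41 (64.1%) had a background of at least 10 times the genome average in wild-type replicate 1, against 32 of 392 (8.16%) in the rest. A NuMA peak overlapped 11 of the 64, and the matching count for the 392 is not given here. Of all wild-type replicate 1 peaks, a peak of either NuMA antibody overlapped 19.5% in the segments and 31.2% in the rest.

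The region with the highest folds of these was chr9:66970988-66971556, 1.60 Mb from the block. Its folds were 24.9 and 26.1 in the wild-type and 22.8 and 27.8 in the depleted lists. Its summits held 1813, 1668, 1272 and 842 fragments. Divided by each library's genome average, which scales them for depth, the heights were 1721, 1690, 1869 and 1678. The depleted heights thus lay close to the wild-type ones, and no NuMA peak overlapped it. Another 4 of the 10 regions of highest fold were on chromosome 9. At chr9:69710750-69711304 the heights were 255 and 355 in the wild-type and 342 and 297 in the depleted libraries, and at chr9:67320398-67320948 they were 172, 197, 192 and 181. In both the groups overlapped. The regions chr9:67790884-67792039 and chr9:44992386-44993524 had heights from 263 to 332 and from 176 to 254.

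The highest pile of fragments was chr1:121484095-121485431, 0.0503 Mb from the block of chromosome 1. It held 3536 and 3056 fragments in the wild-type and 2609 and 1529 in the depleted libraries, or heights of 3357, 3096, 3833 and 3046. The region also had the highest background of each H1 list within the segments, at 281, 257, 341 and 225 times the genome average, so its folds were only 11.9, 12, 11.2 and 13.4. A C-terminal NuMA peak overlapped it. A region of the same kind, chr7:61968578-61969905, had heights of 1078 and 1004 in the wild-type and 1258 and 1110 in the depleted libraries, with backgrounds from 96.6 to 128 times the genome average. Here both depleted libraries were above both wild-type ones.

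Of the remaining regions of this rank, chr10:42529220-42530741 had nearly equal heights of 821, 835, 843 and 853. At chr20:29518262-29518908 they were 105, 143, 138 and 108. The region chr8:43793796-43794164, 0.0450 Mb from the block, stood on an ordinary background of 2.85 to 4.39 times the genome average. Its heights were 52.2 and 80.0 in the wild-type and 82.3 and 77.7 in the depleted libraries, with wild-type replicate 1 apart from the other 3.

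**Figure D4:**
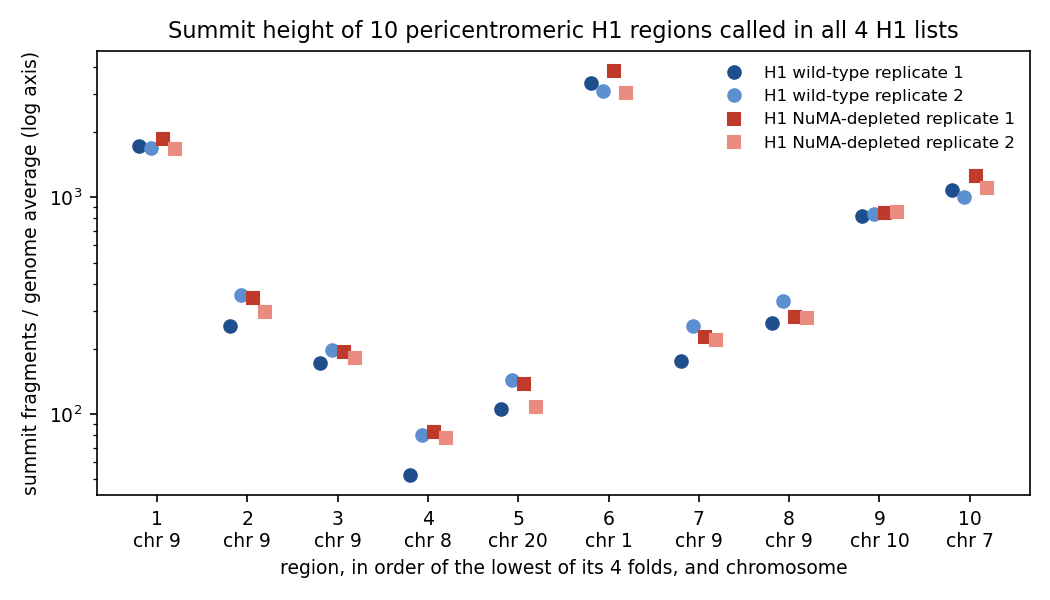
Summit height, as fragments over the genome average of the library on a log axis, at the 10 pericentromeric H1 regions of highest fold that were called in all 4 H1 lists. Heights run from 52.2 to 3833, and wild-type circles and depleted squares of 1 region lie close together beside the differences between regions.

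Over all regions called in the 4 lists, summits were far higher in the segments than in the rest. Height includes the local background and is not a measure of enrichment above it. In wild-type replicate 1 that background was at least 10 times the genome average at 41 of the 64 regions and 32 of the 392. Its part in the heights was not tested. The median height at the 64 regions was 158 and 132 in the wild-type and 195 and 175 in the depleted libraries. At the 392 regions of the rest it was 25.6, 25.3, 30.9 and 33.9. The log2 difference of the medians was 2.62 and 2.38 in the wild-type and 2.66 and 2.37 in the depleted libraries. The groups differed by 0.015 in this measure (exact permutation p = 1.00).

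Region by region, heights were mostly somewhat higher in the depleted libraries, in the segments as in the rest. The mean of the depleted libraries was above that of the wild-type ones at 54 of the 64 regions and at 333 of the 392. The median log2 difference, depleted minus wild type, was 0.16 (quartiles 0.03 and 0.43) over the 64 regions and 0.32 (0.11 and 0.50) over the 392, and this difference between segments and rest was not tested. Both depleted libraries were above both wild-type ones at 27 of the 64 regions, where 48.2% of all 456 such regions of the 15 chromosomes were, and at 193 of the 392. Both were below at 2 of the 64 and 8 of the 392, with 2.19% of all 456. A region had to be called in the shallower depleted lists to be counted, and the part of this in the direction was not tested.

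Wild-type H1 regions of the segments were called again after depletion more often than those of the rest. Of the 148 regions in both wild-type lists, 106 (71.6%, 63.6% to 78.7%) were in at least 1 depleted list, where the whole lists had 59.8%. In the rest this was 1042 of 1765 (59%, 56.7% to 61.3%). Both depleted lists held 64 of the 148 (43.2%, 35.1% to 51.6%), beside 23.9% over the whole lists and 22.2% in the rest. Neither held 42 (28.4%), beside 40.2% and 41%. Depleted replicate 1 held 63.5% of the 148, beside 50.5%, and replicate 2 held 51.4%, beside 33.1%. The difference between segments and rest, 12.6 percentage points for at least 1 list, was 19 with depleted replicate 2 alone and 8.26 with wild-type replicate 1 alone as the reference.

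The regions were also split by background, whose part in this difference was not tested. Where background in wild-type replicate 1 was at least 10 times the genome average, 46 of 49 regions of the segments (93.9%, 83.1% to 98.7%) and 45 of 52 of the rest (86.5%, 74.2% to 94.4%) were called again. Below that background, 60 of 99 (60.6%, 50.3% to 70.3%) and 997 of 1713 (58.2%, 55.8% to 60.6%) were. Within each class the share was higher in the segments, and the intervals of segments and rest overlapped. In 4 equal classes of wild-type fold, from the weakest, the segments kept 62.0%, 66.7%, 83.3% and 79.5%, and the rest 45.7%, 51%, 62.5% and 77.0%. With lists cut to equal length the difference was 4.17 percentage points, 77.8% of 45 regions against 73.6%.

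The overlap of replicates was also higher in the segments than in the rest. Wild-type replicate 2 overlapped 148 of the 241 members of replicate 1 (61.4%, 54.9% to 67.6%), with 54.6% over the whole list and 54.3% (52.6% to 56.1%) in the rest, so these intervals overlapped. Counted the other way, replicate 1 overlapped 149 of the 254 members of replicate 2 (58.7%, 52.3% to 64.8%) and 44% (42.4% to 45.5%) of its peaks in the rest, where they did not. The first difference, of 7.07 points, was 15.2 with segments of 3 Mb on each side and 16 with lists of equal length. Depleted replicate 2 overlapped 71 of the 145 members of replicate 1 (49%, 40.6% to 57.4%) and 26.7% (24.7% to 28.8%) of the peaks of the rest.

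Of the regions in both wild-type lists and in neither depleted list, chr9:41936450-41936796 had the highest of the lower folds. Its folds were 8.68 and 8.89, with 31 and 30 fragments at the summit. At chr14:21979277-21979624 the folds were 8.58 and 9.37 and the fragments 30 and 35. The regions chr8:48078648-48079195, chr10:38645144-38645690 and chr7:64126351-64126842 had 17 to 27 fragments. All 5 had heights of at most 35.5 and backgrounds of at most 2.88 times the genome average. They were low summits beside those called in all 4 lists, whose median height in the same libraries was 158 and 132.

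Regions found only after depletion were few. Of the 71 regions of both depleted lists, 2 (2.82%, 0.343% to 9.81%) were in neither wild-type list, where the whole lists had 5.64%. These were chr11:57566566-57566904, with folds of 6.50 and 6.69, and chr2:90523964-90524304, with folds of 4.76 and 6.27. Their summits held 11 to 18 fragments.

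**Figure D5:**
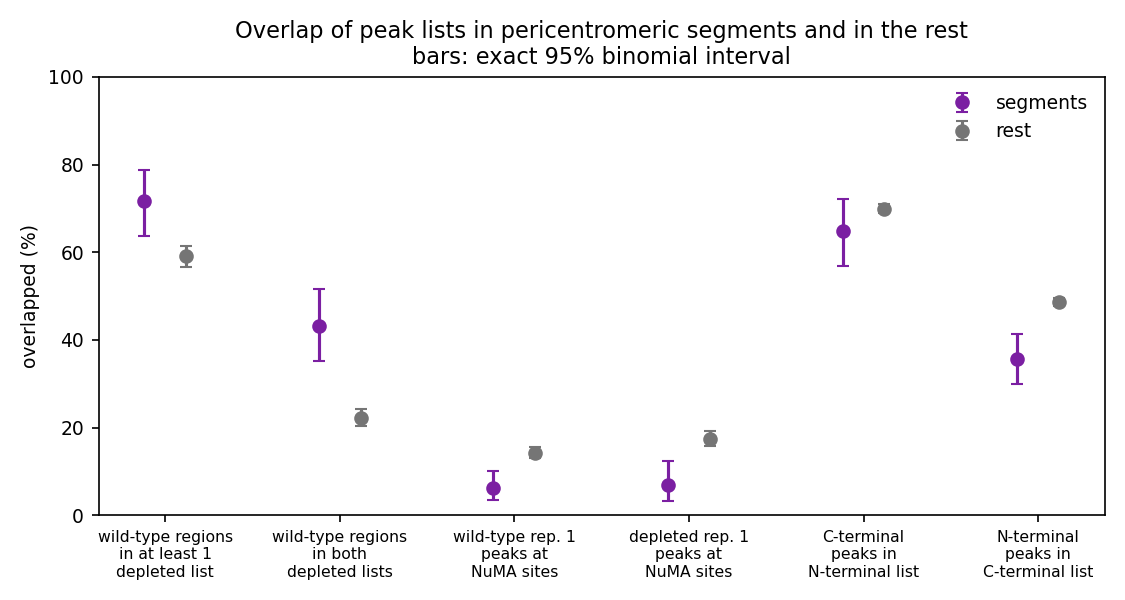
Percent of peaks or regions overlapped by another list in the pericentromeric segments (purple) and in the rest of the same chromosomes (grey), for wild-type H1 regions in depleted lists, H1 peaks at NuMA sites and the 2 NuMA lists; bars are exact 95% binomial intervals. Wild-type H1 regions of the segments are overlapped more often (71.6% against 59%), and H1 peaks of the segments meet NuMA sites less often (6.22% against 14.3% in wild-type replicate 1).

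The NuMA lists were compared with each other in the segments. The N-terminal list overlapped 103 of the 159 C-terminal members (64.8%, 56.8% to 72.2%), with 73.0% over the whole list and 69.9% (68.9% to 70.9%) in the rest, so the intervals overlapped. This difference of -5.15 points was 1.50 with 50% reciprocal overlap and 0.0277 with summits within 200 bp. In the other direction 101 of the 284 N-terminal members (35.6%, 30% to 41.4%) were overlapped, with 51.4% over the whole list and 48.6% (47.7% to 49.6%) in the rest. By those rules the shares were 30.6% against 38.3% and 28.2% against 36.2%. With 1 library per antibody these overlaps have no replicate check. Of the 103 regions of both antibodies, the segments of chromosomes 1 and 20 had 19 each and that of chromosome 2 had 13.

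The 10 NuMA regions of highest fold lay 0.814 to 7.36 Mb from a block, and the 10 H1 regions of highest fold 0.0450 to 4.34 Mb. The first 3 of those H1 regions lay 1.60, 4.34 and 1.95 Mb away, farther than the first 2 NuMA regions. The strongest was chr20:30183544-30184544, with C- and N-terminal folds of 18.8 and 13.1 and 39 and 37 fragments at the summit. A neighbour, chr20:30191496-30192292, had folds of 11.8 and 19.3. They lie 0.814 and 0.822 Mb from the block, and no H1 list had a peak in either. On chromosome 1, chr1:149899291-149900226 had folds of 11.3 and 11, chr1:147993725-147994509 had 12.6 and 9.87, and chr1:149783248-149783963 had 8.19 and 8.25. These lie 5.46 to 7.36 Mb beyond the block and held no H1 peak.

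The other 5 of these NuMA regions were on chromosomes 7, 8 and 12. At chr7:55200949-55201737 the folds were 15.7 and 9.53, at chr7:56118912-56119618 they were 9.32 and 9.52, and at chr7:56019155-56020766 they were 10.4 and 8.69. Wild-type replicate 2 had an H1 peak at the first and the last of these, and no other H1 list did. At chr12:31230262-31231085 the folds were 12.9 and 9.03, and at chr8:42048163-42048829 they were 10.2 and 9.03, with the background of both at the genome average. Over the 10 regions, summit heights ran from 29.3 to 94.3 times the genome average with the C-terminal and from 19.4 to 116 times with the N-terminal antibody.

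H1 peaks of the segments seldom lay at NuMA sites. A region of both NuMA antibodies overlapped 15 of the 241 members of wild-type replicate 1 (6.22%, 3.53% to 10.1%), with 14.9% over the whole list and 14.3% (13.1% to 15.6%) in the rest. In wild-type replicate 2 it was 14 of 254 (5.51%, 3.05% to 9.08%), with 11.9% over the whole list and 10.9% (9.97% to 11.9%) in the rest. Depleted replicate 1 had 10 of 145 (6.90%, 3.36% to 12.3%), with 18.2% and 17.5% (15.8% to 19.3%), and replicate 2 had 3 of 107 (2.80%, 0.582% to 7.98%), with 13.4% and 13.3% (11.3% to 15.5%). By 1 bp of overlap, the interval in the segments lay below that in the rest in each of the 4 lists. The difference between segments and rest averaged -10.6 ± 0.101 (SD, n = 2) percentage points in the depleted and -6.75 ± 1.90 (SD, n = 2) in the wild-type libraries. Depleted minus wild type was -3.81 points (exact permutation p = 0.33, the smallest possible), and -2.46 points without wild-type replicate 2. It was -0.247 points with 50% reciprocal overlap, -0.633 with summits within 200 bp and -0.883 with lists of equal length. With 50% reciprocal overlap the shares were 1.66%, 1.57%, 2.07% and 0.935% in the segments and 4.77%, 3.17%, 6% and 2.20% in the rest, and the intervals of segments and rest overlapped in each list. NuMA peaks are themselves sparser in the segments, and the part of that in these shares was not tested.

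Seen from the NuMA side the order was turned. A peak of any H1 list lay at 24 of the 103 segment regions of both antibodies (23.3%, 15.5% to 32.7%) and at 725 of 5486 in the rest (13.2%, 12.3% to 14.1%). The shares have different bases, as H1 is denser and NuMA sparser per sequenced Mb in the segments than in the rest.

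Among these shared regions, 2 were called in all 6 lists. At chr10:38299563-38300144 the H1 folds were 6.18 and 7.69 in the wild-type and 7.51 and 7.23 in the depleted lists, and the NuMA folds 3.98 and 7.05. Its H1 summits held 17, 17, 14 and 13 fragments, and its NuMA summits 41 and 120. At chr1:143913826-143914338 the H1 folds were 6.73, 5.72, 7.63 and 6.38 and the NuMA folds 2.31 and 3.35. There the NuMA background was 74.2 and 77.5 times the genome average, while the H1 background was 2.88 to 5.08 times. As numbers the NuMA backgrounds were far above the H1 ones at this region, but they may be unlike measures. Whether a control entered the NuMA calls is not given. The H1 background was itself above the medians at H1 peaks of the rest, 1.87 to 2.15 times.

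The regions chr12:31226534-31227155, chr14:20881352-20881872 and chr10:43857079-43858292 were called in 5 lists each, all but depleted replicate 2. Their H1 folds ran from 6.45 to 8.94 and their NuMA folds from 5.28 to 12. In the 3 H1 lists that called them, summits held 16 to 36 fragments. None of these 5 shared regions was among the high H1 summits, and their H1 heights were at most 48.5 times the genome average.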

How the data were processed

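The files analysed were 6 lists of peaks from CUT&Tag libraries of HCT116, called per library. The submitters' processing notes name MACS2, Bowtie2, Trim Galore and Picard, and the build hg19. The sources used here give neither versions nor settings. Per the deposited peak names, the q limit was 0.001, and those for NuMA describe ChIP-seq data. For each peak the authors deposited its position and summit, a score (not used here), a −log10 p, a −log10 q and a fold, the ratio of the summit to its local background. Folds were used only to describe, rank and filter peaks within a list.

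The members, the lists of regions and the measures were chosen with earlier results of these data known. Python 3.11.15 was used, with pandas 2.3.3, scipy 1.17.1, numpy 2.4.6 and, for plots, matplotlib 3.10.9. A peak was placed by its start. Lengths and unsequenced blocks of hg19 were entered by hand from general knowledge of that build and not checked against its gap table. No hg19 genome was used here, so no genes or sequences are given. The main density used full length, and sequenced length was added after the counts were seen. Sharing needed 1 bp of overlap, and shared regions are counted on the first of the lists compared. Fragments n and background b at a summit were solved from the fold, (n + 1) / (b + 1), and the Poisson tail of the −log10 p, and gave counts within 0.01 of a whole number for nearly all peaks. This step was tested on simulated data. The lowest b of a list is its genome average.

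Groups were compared over libraries by exact two-sided permutation tests of 1 value per library. With 2 against 2 the smallest p is 0.33, and with 4 against 2 it is 0.0667. The named regions were, within the segments, the 10 of all 4 H1 lists and the 10 of both NuMA antibodies with the highest lower fold, up to 5 found only in wild-type or only in depleted lists, 5 called for H1 and both NuMA antibodies, and the 5 bins of 1 Mb with most H1 peaks. Alternatives were segments of 3 Mb on each side, leaving out chromosomes 1 or 9, the strongest peaks or each library, a −log10 q of at least 5, lists of equal length, other lengths and other overlap rules.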

Additional observations from a re-analysis of the deposited data

How the results depend on the processing

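Of 169 recomputed values, 140 kept their direction and side of the threshold or moved by less than their error, 18 moved and 11 changed sign or side of 1. With 2 libraries a group no comparison of the H1 groups could pass 0.05, so these counts say nothing on its stability. Without unsequenced blocks the density ratios of the H1 lists were 1.38, 1.18, 1.45 and 1.91 and those of NuMA 0.378 and 0.486. Without stretches of 1 Mb or more that were empty in every list they were 1.59, 1.36, 1.67 and 2.19, and 0.434 and 0.558. With 3 Mb on each side the full-length ratio was 0.647 in wild-type replicate 1 and 0.0999 and 0.131 for NuMA. Without chromosome 9 the NuMA ratios were 0.253 and 0.319, and with equal lists the C-terminal one was 0.261. Nothing was measured inside the blocks. The part of depth in the calls was not tested, and depth and depletion cannot be told apart.

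The shift of the median H1 fold between H1 groups was -0.031 without chromosome 9 and -0.031 with equal lists, and ran from -0.035 to 0.061 with 1 replicate left out. That of H1 minus NuMA was 0.010 with 3 Mb on each side and 0.073 with equal lists. The top 1% of H1 peaks lay in the segments at 18.4% without chromosome 9 and 41.7% with equal lists, and that of NuMA at 0%. Equal lists gave differences of 4.17 points for H1 regions kept and 16 for the wild-type overlap, which was 15.2 with 3 Mb on each side. Causes were not tested.

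With 1 library left out, the density difference of the H1 groups ran from 0.18 to 0.58, that of H1 minus NuMA from 1.59 to 1.95, regions kept from 8.26 to 19 points, and H1 peaks at NuMA sites from -5.15 to -2.46 points. With the replicate number as a block, the H1 differences were 0.38 (exact sign-flip p = 0.5), 0.013 (p = 1) and -3.81 points (p = 0.5). The deviations of equal numbers had a correlation of -0.14 over 229 windows, and the crossed pairing, tried after the data were seen, called 0 of 3 comparisons, as did the numbered one.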

Other observations

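The 7 autosomes outside the 15 described, chromosomes 4, 13, 16, 17, 18, 19 and 22, also have an unsequenced centromere block in hg19. Within 0.25 Mb of these blocks the wild-type H1 lists had 18 and 17 peaks, 1.79% and 1.40% of their peaks on these chromosomes. The depleted lists had 14 and 16, or 2.51% and 5.57%. The NuMA lists had 2 C-terminal and 4 N-terminal peaks there, 0.0328% and 0.0497%. Chromosome 17 had the most H1 peaks beside its block, with 6 and 7 in the wild-type and 4 and 7 in the depleted lists and none of NuMA. Chromosome 19 had 4 in each H1 list and 1 C-terminal NuMA peak. Depleted replicate 2 had the highest share here too, and was the shallowest H1 library. The groups were not tested against each other on these chromosomes.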
